A study of Rattus norvegicus with 105 samples.

Results

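Neutrophils are called into damaged tissue by a small set of chemokines and carry a recognisable set of transcripts with them. The transcripts followed here are Cxcl1, Cxcl2, S100a8, S100a9, Csf3r and Cxcr2, chosen by name as neutrophil chemokines and markers. All 6 were on the array, each on 1 probe set, out of 22954 probe sets tested. They were measured in the gastrocnemius, a calf muscle, of male Sprague-Dawley rats that carried metal pellets in that muscle. Every value is a log2 intensity as the authors deposited it, so a difference of 1 is a doubling of signal.

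Rats bought at about 30 days of age and held for at least 2 weeks received 4 cylindrical pellets, 2 in each hind limb, and muscle was collected 1, 3, 6 or 12 months afterwards. The 8 metals of interest were nickel, cobalt, copper, iron, lead, aluminum, tungsten and depleted uranium, and tantalum pellets made up the implanted sham group. Each of the 35 metal-by-month groups had 3 arrays, and nickel at 12 months was not analysed here. Each array held RNA pooled from 2 to 3 rats, so that a p-value measures the spread between pools and not between rats. Every group, tantalum included, had undergone surgery and carried pellets, and each comparison therefore starts from muscle with a foreign body in it. In whole muscle, fewer cells of a type and less RNA per cell cannot be told apart. Markers of skeletal muscle averaged 13.25 to 13.35 in the nickel and tantalum arrays of 1 and 3 months.

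Cxcl1 and Cxcl2 belong to the ELR group of CXC chemokines, which are secreted by macrophages, endothelium and stromal cells after inflammatory signals and act on the receptor Cxcr2 of neutrophils. S100a8 and S100a9 encode calgranulins, calcium-binding proteins that pair with each other and are abundant in the cytosol of neutrophils and monocytes. Csf3r encodes the receptor for granulocyte colony-stimulating factor (G-CSF), which drives the production and release of neutrophils from bone marrow.

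In the rat genome Cxcl1 and Cxcl2 are direct neighbours on chromosome 14, and S100a8 and S100a9 are neighbours on chromosome 2. Promoters, 250 bases before to 50 bases after the start, are shown for Cxcl2 and S100a9, because these genes differed from tantalum in the results below. That of Cxcl1 is added as the neighbouring chemokine that did not, a choice made after its values were seen. RefSeq sequences of the assembly GRCr8 were used, in which 5 of the 6 genes had an entry. All 3 lie on the minus strand and are written 5′ to 3′, and capitals mark the matches to the motifs searched.
Cxcl2, chr14:17467206-17467505: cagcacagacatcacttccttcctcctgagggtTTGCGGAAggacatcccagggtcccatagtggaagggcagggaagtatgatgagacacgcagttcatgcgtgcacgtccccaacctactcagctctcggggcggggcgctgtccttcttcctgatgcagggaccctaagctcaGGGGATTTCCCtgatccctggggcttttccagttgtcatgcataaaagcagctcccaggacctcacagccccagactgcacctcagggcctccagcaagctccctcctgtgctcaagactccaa
Cxcl1, chr14:17479272-17479571: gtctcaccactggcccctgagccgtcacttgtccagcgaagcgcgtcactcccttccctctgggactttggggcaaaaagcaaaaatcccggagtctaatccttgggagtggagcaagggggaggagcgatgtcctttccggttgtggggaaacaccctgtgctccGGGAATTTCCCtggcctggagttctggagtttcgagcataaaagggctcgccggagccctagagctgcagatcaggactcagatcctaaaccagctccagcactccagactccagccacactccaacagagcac
S100a9, chr2:178490573-178490872: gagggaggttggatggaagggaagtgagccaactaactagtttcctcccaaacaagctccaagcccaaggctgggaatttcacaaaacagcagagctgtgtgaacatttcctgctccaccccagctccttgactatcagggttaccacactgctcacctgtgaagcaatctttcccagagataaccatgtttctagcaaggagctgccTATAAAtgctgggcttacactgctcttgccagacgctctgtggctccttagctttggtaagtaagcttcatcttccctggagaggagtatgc
The motifs were searched on both strands. The NF-kB consensus, named after the inflammatory transcription factor and added after the data were seen, matched in both chemokine promoters, with its first base at -74 in Cxcl2 and at -84 in Cxcl1, in a run of bases where matches on both strands overlap. It occurs in 7.51% of 33469 promoters of this length. A narrower form, GGANTTTCC, occurs in 1.28% of them and matched in Cxcl1 at -83, inside the same run. TTGCNNAA, a core of C/EBP sites, occurs in 10.6% and matched in Cxcl2 at -217 as TTGCGGAA. TATAAA occurs in 14.2% and matched in S100a9 at -42. No motif searched matched in the windows of Csf3r or Cxcr2. A match is a string of letters and was not tested as a binding site.

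Against tantalum of the same month, the calls among these genes were all with nickel. Cxcl2 was raised in nickel muscle at 1 and 3 months, and S100a9 at 3 months. Cxcl1, S100a8, Csf3r and Cxcr2 did not pass in any comparison of a metal with tantalum. Tests were made in limma, each comparison adjusted by Benjamini and Hochberg's method across all 22954 probe sets, with a threshold of 0.05. Of the 6 genes, 3 of 186 tests of these genes against tantalum of the same month passed, all 3 higher. Over all probe sets, 0.443% of tests passed. Without adjustment, 20 of the 186 had a p below 0.05. Over all probe sets, between 875 and 4609 of 22954 had such a p in a single comparison.

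**Figure D1:**
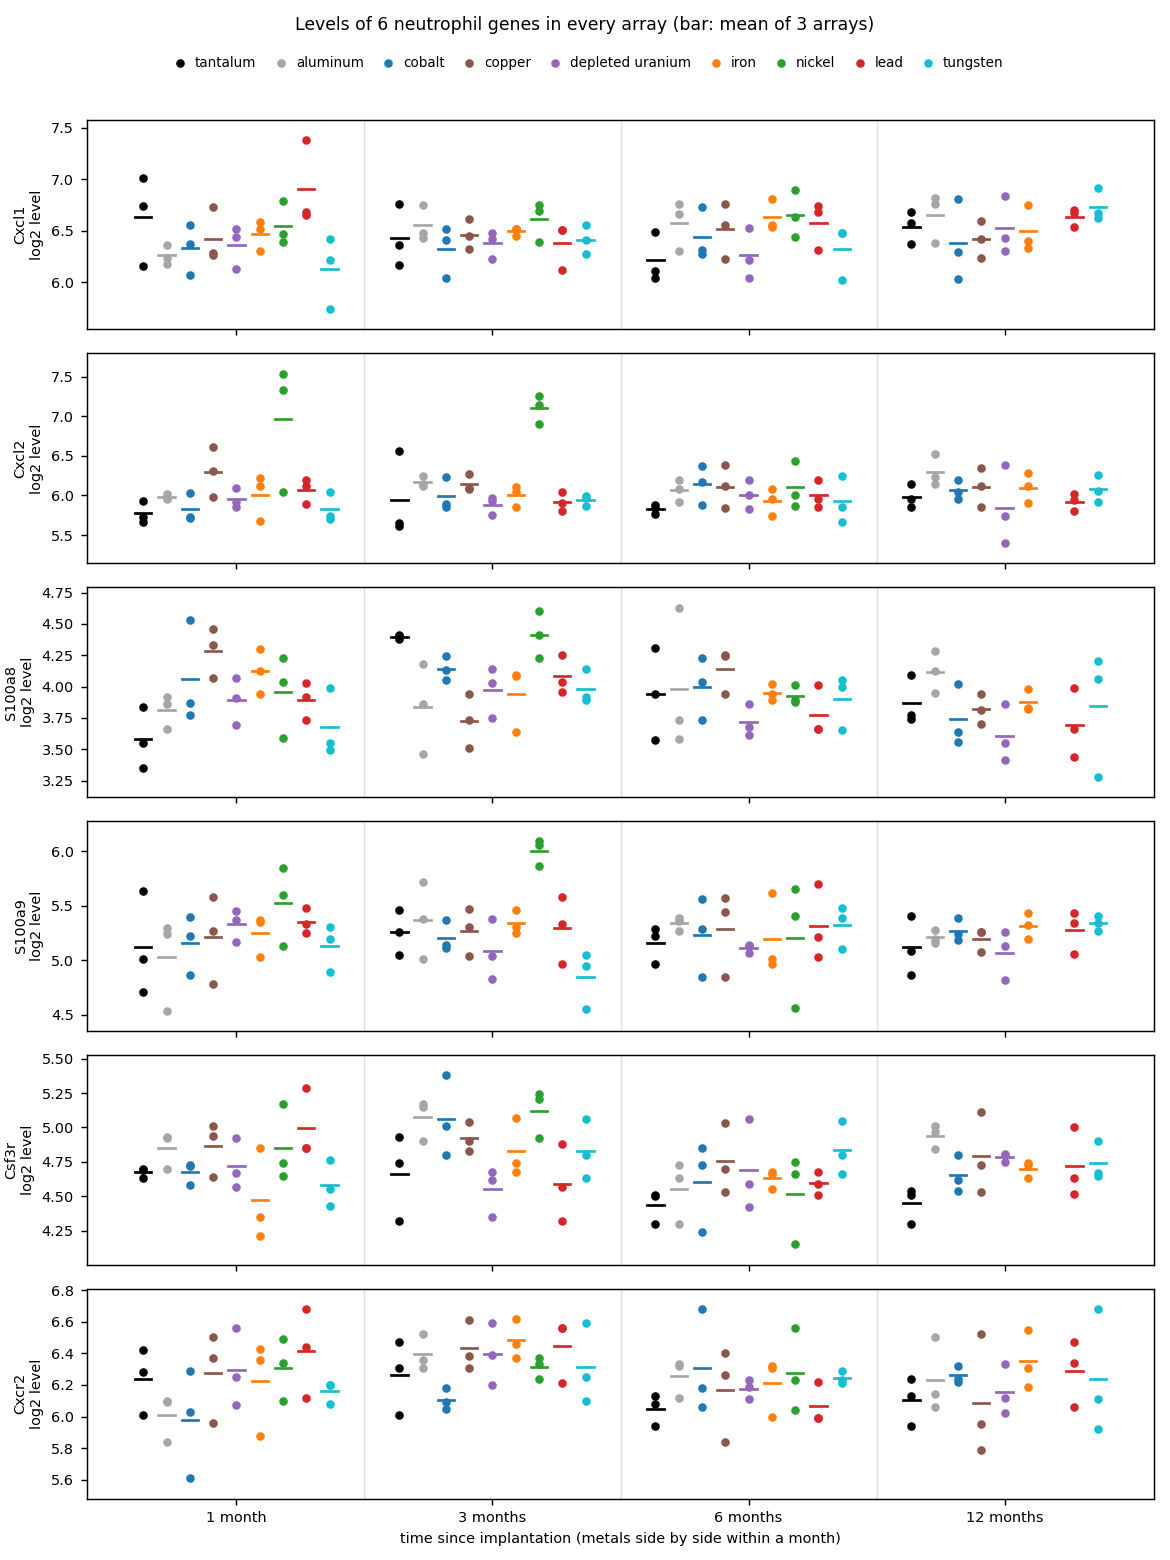
Log2 level of each gene (vertical axis) in every array, by month and metal; each point is 1 array and each bar the mean of 3 arrays. The nickel means stand highest for Cxcl2 at 1 and 3 months (6.97 and 7.11) and for S100a9 at 3 months (6.00).

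Cxcl2 gave the clearest result. At 1 month the nickel arrays read 6.04, 7.34 and 7.54, and the tantalum arrays 5.93, 5.73 and 5.67. All 3 nickel pools lay above all 3 tantalum pools, but the first nickel pool stood close to them and far from the other 2. The mean was 6.97 ± 0.81 against 5.78 ± 0.13 (SD, n = 3 each). In limma the log2 difference was 1.20 ± 0.20 (SE; 95% interval 0.79 to 1.60), a 2.29-fold higher signal with an adjusted p of 0.000109. At this month 0.405% of all probe sets were called higher with nickel and 0.392% lower. Fitted to the 6 arrays alone, where the spread comes from these pools, the same difference had an adjusted p of 0.442.

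At 3 months the nickel pools resembled each other more. Cxcl2 read 6.91, 7.15 and 7.26 with nickel and 5.65, 6.56 and 5.62 with tantalum. The groups again did not overlap, and this time a single tantalum pool, the second, reached towards nickel. The difference was 1.16 ± 0.20 (95% interval 0.76 to 1.57), or 2.24-fold, with a limma adjusted p of 3.88e-05, where 2.82% of all probe sets were called higher and 0.597% lower. With the 6 arrays alone the adjusted p was 0.0568.

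By 6 months the nickel arrays of Cxcl2 read 6.43, 5.87 and 6.01, against 5.77, 5.88 and 5.84 with tantalum. These ranges overlapped, and the difference of 0.27 ± 0.20 did not pass (limma adjusted p = 0.94). As the mean over 1, 3 and 6 months the difference was 0.88 ± 0.12 with an adjusted p of 8.73e-08. That was the 1 call among 48 tests of these genes over months, against 0.545% of all such tests, and 1.84% of probe sets were called higher in nickel's mean. A moderated F test asked whether the difference changed between months. It did not pass for Cxcl2 with nickel (limma adjusted p = 0.11, unadjusted p = 0.00224), so that the smaller value at 6 months is not shown to be a decline. Of 48 such tests of the 6 genes 0 passed in limma, 4 with an unadjusted p below 0.05, against 0.699% of tests over all probe sets.

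The other metals held lower levels of Cxcl2. Apart from nickel at 1 and 3 months, group means lay between 5.78, in tantalum at 1 month, and 6.30, in aluminum at 12 months and copper at 1 month. Copper at 1 month had arrays of 5.98, 6.31 and 6.61, all above the 3 of tantalum, but its difference of 0.52 ± 0.20 did not pass (limma adjusted p = 0.445). In the order of the 35 group means, the step from the second to the next, from 6.97 to 6.30, exceeded the pooled SD of the groups on either side. The other steps did not.

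Whether the rise set nickel apart from the other metals was tested directly. Against the mean of the other 7 metals of the month, Cxcl2 was higher with nickel by 0.98 ± 0.15 at 1 month (adjusted p = 1.06e-05) and by 1.10 ± 0.15 at 3 months (adjusted p = 1e-07, both limma). Calls in these contrasts were made for 0.967% and 3.92% of probe sets as higher. The value of 1 month was 0.70 with an adjusted p of 0.085 when the nickel arrays with replicate number 3 were left out at every month, as in all such fits below. Of 186 such tests of the 6 genes 4 passed, 20 with an unadjusted p below 0.05, against 0.735% over all probe sets.

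Cobalt is the metal to set beside nickel, a contrast added after the data were seen. Cxcl2 with cobalt was at 5.82 ± 0.18 at 1 month, and its difference from tantalum was 0.04 ± 0.20 at both 1 and 3 months. Nickel exceeded cobalt by 1.15 ± 0.20 at 1 month (adjusted p = 0.000372) and by 1.12 ± 0.20 at 3 months (adjusted p = 6.99e-05), while the difference at 6 months was -0.03. Calls as higher were made for 0.436% and 0.51% of probe sets in the contrasts of 1 and 3 months. Without the nickel arrays numbered 2 or 3 the call at 1 month was lost, with an adjusted p of up to 0.118.

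**Figure D2:**
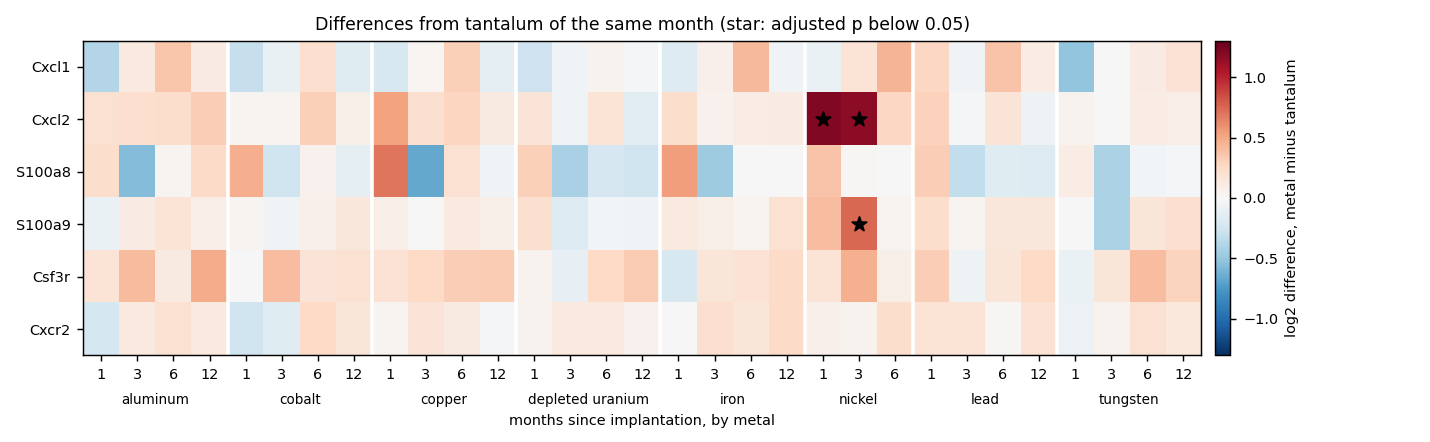
Log2 difference from tantalum of the same month for each gene (rows) and each metal and month (columns), with the colour scale in log2 units and a star where the limma adjusted p is below 0.05. The colours of S100a8 include groups at background. The 3 stars are Cxcl2 with nickel at 1 and 3 months (1.20 and 1.16) and S100a9 with nickel at 3 months (0.75).

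Cxcl1, the neighbour of Cxcl2 and a ligand of the same receptor, did not follow it. Its nickel arrays at 3 months read 6.69, 6.39 and 6.75, and those of tantalum 6.17, 6.76 and 6.36. These ranges overlapped. The differences of Cxcl1 with nickel were -0.09, 0.18 and 0.44 at 1, 3 and 6 months, each ± 0.19, and the smallest of their limma adjusted p-values was 0.779. Intervals for 1 and 3 months ended at 0.30 and 0.56, below the lower limits of 0.79 and 0.76 for Cxcl2. Whether the genes differ in their response was not tested.

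The highest and the lowest mean of Cxcl1 both fell at 1 month. Lead gave 6.90, with arrays of 6.65, 7.38 and 6.68, and tungsten gave 6.13, with arrays of 5.74, 6.42 and 6.22. Tantalum itself spread from 6.16 to 7.01 at this month, so that its range overlapped with each of them. Against tantalum the limma differences were 0.27 ± 0.19 for lead (adjusted p = 0.434) and -0.51 ± 0.19 for tungsten (adjusted p = 0.791). Against the other 7 metals, whose arrays lay between 5.74 and 6.79, lead was higher by 0.54 ± 0.14 (6.90 against 6.36; limma adjusted p = 0.0258), a contrast in which 2.03% of probe sets were called higher. Without the lead arrays numbered 2 this value was 0.30 with an adjusted p of 0.618. Treml1, a platelet gene, was also higher in that contrast, by 0.39 (limma adjusted p = 0.0418), as 1 of 5 platelet markers, whose part in the result was not tested.

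S100a9, the larger calgranulin, was the other gene to rise. At 3 months its nickel arrays read 6.09, 5.86 and 6.06 and its tantalum arrays 5.26, 5.46 and 5.05. The nickel pools lay close together and above each tantalum pool. The difference was 0.75 ± 0.21 (95% interval 0.32 to 1.17), or 1.68-fold, with a limma adjusted p of 0.0288. The call is a narrow one: it ended without the nickel arrays numbered 1 (adjusted p = 0.117) or 3 (0.0703), without the tantalum arrays numbered 1 (0.0685) or 3 (0.189), after a second quantile normalization (0.0521), and with adjustment over all 31 comparisons (0.148). S100a9 was also among the dim transcripts, above 5.45, below which the dimmest 30% of probe sets lie, in 20 of all arrays.

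At 1 month S100a9 read 5.13, 5.60 and 5.85 with nickel and 5.64, 5.01 and 4.71 with tantalum. At 6 months it read 5.65, 4.56 and 5.41 with nickel and 5.29, 4.97 and 5.22 with tantalum. Both pairs of groups overlapped, and the differences of 0.40 ± 0.21 and 0.04 ± 0.21 did not pass in limma (adjusted p = 0.5 and 0.999). The mean over months was 0.40 ± 0.12 (adjusted p = 0.06, and 0.0457 with the replicate number as a block).

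Among the 35 groups, nickel at 3 months held the highest mean of S100a9, 6.00, followed by nickel at 1 month with 5.53 ± 0.36. That first step was larger than the pooled SD and the arrays of the 2 groups did not overlap. No other pair of neighbours in the order, from 5.53 down to 4.85 in tungsten at 3 months, was separated in this way. Nickel at 3 months exceeded the other metals by 0.80 ± 0.16 (limma adjusted p = 0.000275). It exceeded cobalt by 0.80 ± 0.21 (limma adjusted p = 0.0209), a call that ended without the nickel arrays numbered 1 or 3, without the cobalt arrays numbered 2 or 3 (adjusted p of up to 0.109), and after a second quantile normalization (0.0507).

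S100a8, the partner of S100a9, gave little signal on this array. It lay above the median of its array's control probe sets in 25 of all arrays, with levels between 3.28 and 4.63, and above 5.45 in 0. At 3 months its nickel arrays read 4.60, 4.41 and 4.23 and its tantalum arrays 4.41, 4.40 and 4.38. Nickel thus straddled tantalum, with a limma difference of 0.02 ± 0.20 (adjusted p = 0.989). Nickel and tantalum at 3 months nevertheless held the highest means of S100a8, 4.41 and 4.40, of all groups. Against the other 7 metals the difference of nickel did not pass (limma adjusted p = 0.0616). It passed with array weights (adjusted p = 0.0193), without the aluminum arrays numbered 2 (0.0239) and without the tungsten arrays numbered 1 (0.0387). No size is given for it, because no aluminum, copper, depleted uranium, iron or tungsten array of 3 months was above its control median.

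In tantalum muscle S100a8 read 3.35, 3.84 and 3.55 at 1 month, 4.41, 4.40 and 4.38 at 3 months, 3.57, 3.94 and 4.31 at 6 months, and 3.74, 4.09 and 3.77 at 12 months. The 3 pools of 3 months lay above all pools of the other months. All 3 were above the control median of their arrays, and none of the 3 at 1 month was, so that no size is given for the difference between these months. Its test passed in limma (adjusted p = 0.0442), in a contrast where 0.0871% of probe sets were called higher. It was the 1 call among 18 tests of the 6 genes in tantalum over time, 2 with an unadjusted p below 0.05, against 4.28% over all probe sets, and 1 in 18 is near that share. The call ended with the replicate number as a block (adjusted p = 0.0637) and in 10 of 27 fits that each left out the arrays of 1 metal and number, those of tantalum 1, 2 and 3 among them (adjusted p of up to 0.259).

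Copper gave the smallest adjusted p-values for S100a8 against tantalum, and neither month passed. It read 4.33, 4.07 and 4.46 at 1 month, above all tantalum arrays, and 3.51, 3.94 and 3.73 at 3 months, below all of them. The limma adjusted p-values were 0.122 and 0.177. No sizes are given, because none of the tantalum arrays of 1 month and none of the copper arrays of 3 months was above its control median. The test of a change between months had an adjusted p of 0.0765 in limma for copper, the smallest of the 48. It was 0.0452 with the replicate number as a block, 0.0457 after a second quantile normalization and 0.0284 with array weights. The same arrays at background enter this test. Tantalum itself also differed, with a mean of 3.58 at 1 month and 4.40 at 3 months, beside 4.29 and 3.73 with copper. Every metal was compared with these tantalum arrays. In limma, S100a8 with aluminum and with iron was also among the 4 with an unadjusted p below 0.05 (adjusted p = 0.484 and 0.811). The parts of copper and of tantalum in the change were not tested.

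**Figure D3:**
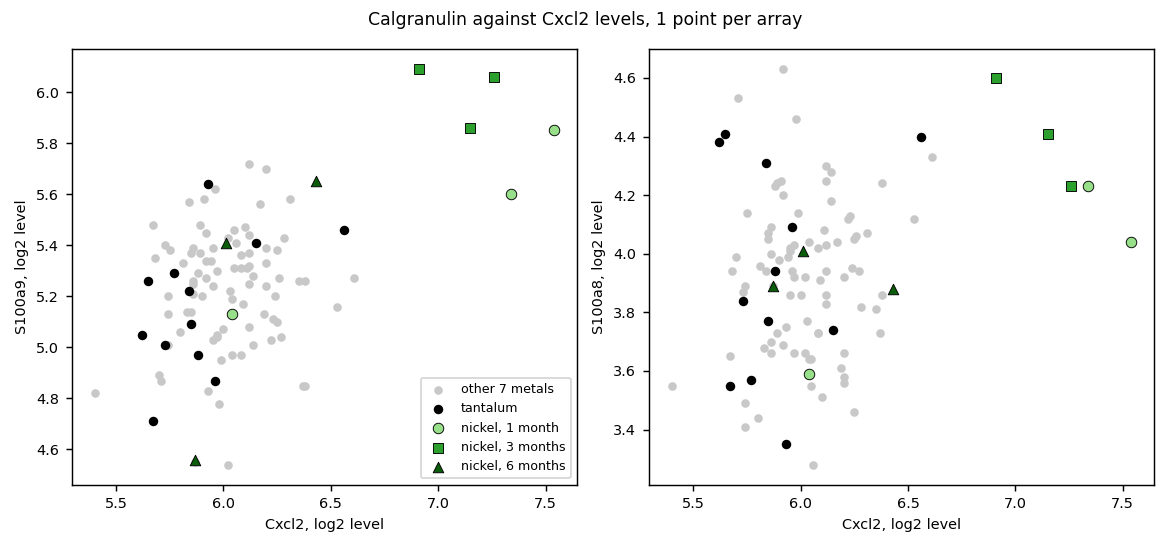
Log2 level of S100a9 (left) and S100a8 (right) against that of Cxcl2, 1 point per array, with nickel arrays in green by month, tantalum in black and the other 7 metals in grey. The 3 nickel arrays of 3 months hold Cxcl2 levels from 6.91 to 7.26 and S100a9 levels from 5.86 to 6.09, while their S100a8 levels, 4.23 to 4.60, lie within the range of other arrays.

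Neither receptor was called against tantalum or the other metals in the fit to all arrays. Csf3r was dim, between 4.15 and 5.38, above the control median in 104 arrays and above 5.45 in 0. With nickel at 3 months it read 4.92, 5.24 and 5.21, against 4.74, 4.93 and 4.32 with tantalum. The ranges overlapped at their edges, and the difference of 0.46 ± 0.17 did not pass (limma adjusted p = 0.141, and 0.0446 with array weights). Nickel, aluminum and cobalt at 3 months held its highest means, 5.12, 5.07 and 5.06, and no neighbours in its order of 35 means were separated by more than their pooled SD.

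Aluminum gave the smallest adjusted p for Csf3r as a mean over months. At 12 months its arrays read 5.01, 4.97 and 4.84, all above the 4.30, 4.51 and 4.54 of tantalum, a difference of 0.48 ± 0.17 (limma adjusted p = 0.402). Over the 4 months the difference was 0.30 ± 0.09 (limma adjusted p = 0.0916). Aluminum was not alone in this. In the mean over months all 8 metals lay above tantalum in Csf3r, by 0.1 to 0.3, with a median of 0.19. In limma 5 of these 8 had an unadjusted p below 0.05, and 0 passed after adjustment. Over all probe sets, between 1435 and 4291 of 22954 had such a p in a single mean over months. By month, 26 of 31 differences of Csf3r from tantalum were above 0. The pattern was not particular to Csf3r. Such counts were 26 for Cxcl2 and 25 each for Cxcr2 and S100a9, but 16 for Cxcl1 and 15 for S100a8. In the mean over months all 8 metals lay above tantalum in Cxcl2 too. All metals were compared with the same tantalum arrays, so that these counts are not independent. Tantalum at 6 and 12 months held the lowest means of Csf3r, 4.44 and 4.45.

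Cxcr2, the receptor that Cxcl1 and Cxcl2 share, varied least of the 6, by 0.51 between the highest group mean, iron at 3 months with 6.49, and the lowest, cobalt at 1 month with 5.98. With nickel at 3 months it read 6.37, 6.24 and 6.33, inside the tantalum range of 6.01 to 6.47. Its limma differences with nickel were 0.07, 0.05 and 0.23 at 1, 3 and 6 months, each ± 0.17, and the intervals of 1 and 3 months ended at 0.42 and 0.39. Without adjustment, 0 of its 31 tests against tantalum by month had a p below 0.05, and the smallest limma adjusted p was 0.591. Against the other metals, cobalt at 3 months had a difference of -0.29 ± 0.13 (limma adjusted p = 0.192), which passed with array weights (adjusted p = 0.0494).

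Further genes of the neutrophil programme were counted, together with genes followed above, from lists chosen with earlier results of these data known. Those with nickel at 3 months come first, where 2.82% of all probe sets were called higher. Of 113 genes in all lists together, 21 were called with nickel at 3 months, Cxcl2 and S100a9 among them. With cobalt 21 were called as well, where the share of all probe sets called higher was 4.87%. The 113 genes include the lists for macrophages, monocytes, other blood cells, skin and skeletal muscle described further below. Of 6 measured ELR chemokines and receptors, 1 rose, Cxcl2, and the other ligands Cxcl6 and Ppbp had differences of 0.03 and 0.17. The list's median was 0.11, and the median of all probe sets was -0.02. Of 9 genes of the G-CSF axis and granulopoiesis 2 rose, both chains of other cytokine receptors. They were Csf2rb by 1.11 ± 0.20 (5.95e-05) and Il17ra by 0.95 ± 0.17 (4.64e-05, adjusted p in limma). The G-CSF receptor Csf3r was not called, and Csf3, which encodes G-CSF, had a difference of 0.22 (limma adjusted p = 0.607). Of 5 calgranulin genes and receptors S100a9 rose, and Tlr4, a receptor for calgranulins, had a difference of 0.39 (adjusted p = 0.442).

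Granule genes are made by neutrophils as they mature. Of 4 primary granule genes 0 passed at 3 months in limma (1 had an unadjusted p below 0.05), with a median of 0.01, and Elane, neutrophil elastase, had a difference of -0.44 (adjusted p = 0.21). Only 1 of these 4 probe sets reached 5.45 on average. Of 9 secondary and tertiary granule genes 1 rose, Chi3l1, a chitinase-like protein also made by macrophages, by 0.65 ± 0.17 (limma adjusted p = 0.011). Lcn2, lipocalin, had 0.51 (adjusted p = 0.2) and Mmp9, a gelatinase, -0.09 (adjusted p = 0.944). The mean level of the primary granule list was 4.92 to 5.11 in the nickel arrays and 4.89 to 5.24 in the tantalum arrays.

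Surface receptors and inflammatory targets come next. Of 11 neutrophil surface receptors 3 rose: the Fc receptor Fcgr3a by 1.45 ± 0.20 (9.41e-08), the amplifying receptor Trem1 by 0.74 ± 0.18 (0.00555) and the C-type lectin Clec4d by 0.75 ± 0.21 (0.0243; adjusted p in limma). The median of the 11 was 0.45. Which cells carried these transcripts was not tested. Of 9 inducers and early targets of NF-kB 2 rose, Socs3, a feedback inhibitor of cytokine signalling, by 0.71 ± 0.17 (0.00429) and Il1rn, the interleukin-1 antagonist, by 1.31 ± 0.33 (0.00841), with Il1b at 0.70 (0.0545) just outside. Of 6 endothelial adhesion molecules 1 rose, Vcam1, by 1.12 ± 0.23 (0.000671).

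Cobalt at 3 months, compared with the same tantalum arrays, had calls in some of these lists too, where 4.87% of all probe sets were called higher. Csf2rb rose by 1.59 ± 0.20, Il17ra by 1.32 ± 0.17 and Chi3l1 by 1.78 ± 0.17. Among 11 surface receptors 3 rose, Fcgr3a by 2.13 ± 0.20, Itgb2 by 1.03 ± 0.23 and Itgam by 0.78 ± 0.25, and among 6 endothelial molecules Vcam1 (1.85 ± 0.23) and Icam1 (0.56 ± 0.14). Chi3l1 and Fcgr3a were lower with nickel than with cobalt, by -1.13 ± 0.17 and -0.68 ± 0.20 (limma adjusted p = 7.01e-07 and 0.0442). Of the ELR list, the calgranulin list and the NF-kB list 0 members passed with cobalt in limma, with 0, 1 and 3 at an unadjusted p below 0.05.

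Markers of macrophages and monocytes moved in the same comparison. At 3 months 8 of 12 macrophage markers rose with nickel, beside 2.82% of all probe sets, with a median of 0.81, among them C1qb (1.68 ± 0.24), Aif1 (1.31 ± 0.27), Adgre1 (1.14 ± 0.27) and Mrc1 (1.00 ± 0.24). The mean level of the list was 7.67 to 7.99 in nickel arrays and 7.01 to 7.27 in tantalum arrays. Of 5 monocyte markers Plac8 (1.43 ± 0.22) and Fcgr1a (0.72 ± 0.18) rose, and the mean level was 6.66 to 6.80 against 6.02 to 6.18. The part of these cells in the rise of Cxcl2, S100a9 and the surface receptors was not tested. With cobalt at 3 months 10 of the 12 macrophage markers rose, with a median of 1.00, beside 4.87% of all probe sets. Cxcl2 and S100a9 had differences of 0.04 and -0.05 there. Of the 5 monocyte markers 2 rose with cobalt, with a highest difference of 2.92. In the direct contrast 1 of the 5 was called lower with nickel than with cobalt. Of the 5 platelet markers 1 rose with cobalt. Counts of 0 were found in limma with nickel at 3 months for eosinophil, basophil and mast cell markers (13 measured), erythroid (5), platelet (5), skin (6) and skeletal muscle markers (10); an unadjusted p below 0.05 was found for 1 gene of the first list and 1 platelet gene.

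At 1 month, when Cxcl2 was raised and S100a9 was not called, fewer of these genes passed with nickel. They were 3 of the 113 genes in all lists, Cxcl2 among them, beside 0.405% of all probe sets called higher. Trem1 rose by 1.07 ± 0.18 (limma adjusted p = 7.26e-05), as 1 of 11 surface receptors, and Plac8 by 0.84 ± 0.22 (0.0393), as 1 of 5 monocyte markers. Of the granule lists, the NF-kB list and the macrophage list 0 members passed in limma, with medians of 0.12, 0.13, 0.55 and 0.54 beside a median of 0.00 for all probe sets. Without adjustment, 6 of 9 genes of the NF-kB list and 7 of 12 macrophage markers had a p below 0.05. Over all probe sets, 2445 of 22954 had such a p in this comparison. Il1b had 0.71 (limma adjusted p = 0.11), Il1rn 1.01 (0.136) and C1qb 0.86 (0.0689). The mean level of the macrophage list was 7.44 to 7.88 in nickel arrays and 6.86 to 7.66 in tantalum arrays, which overlapped. At 6 months 0 of the 113 genes in these lists passed in limma, and 0% of all probe sets were called. An unadjusted p below 0.05 was found for 8 of the 113, and for 1365 of 22954 probe sets.

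**Figure D4:**
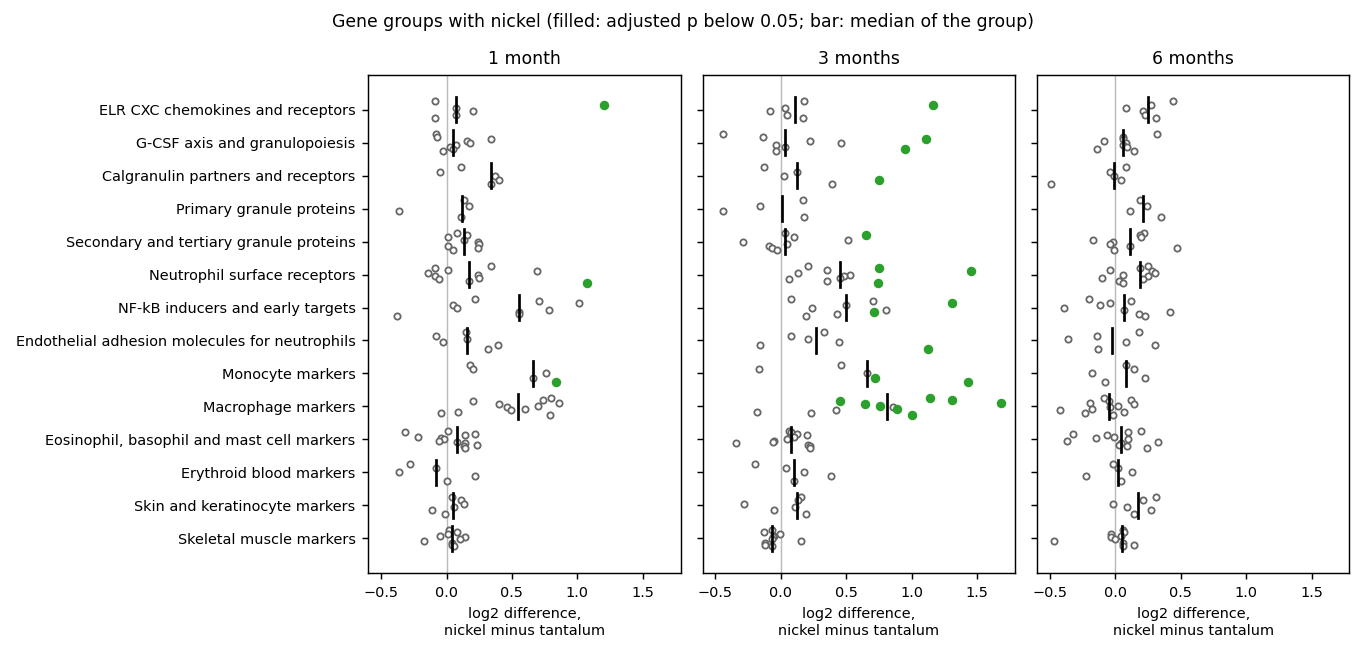
Log2 differences of nickel from tantalum (horizontal axis) for each measured gene of 14 gene groups, at 1, 3 and 6 months; filled points have a limma adjusted p below 0.05 and the bar is the group's median. Macrophage markers, with 8 of 12 filled, and surface receptors, with 3 of 11, stand to the right at 3 months, and no point is filled at 6 months.

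The genes whose pattern over the 35 group means was most like that of a member were taken from 10894 probe sets with 1 symbol and a mean level at or above 5.45. For Cxcl2 these were Nos2, the inducible nitric oxide synthase (Pearson r = 0.809), Mt1, a metallothionein (0.786), and Ccl3, a chemokine (0.782). Without the nickel groups the values fell to 0.445, 0.00127 and 0.00353 over 32 groups, so that the likeness of Mt1 and Ccl3 rested on the nickel groups. S100a9 was most like Cxcl2 itself (0.764, and 0.383 without nickel), Tnnt2, the cardiac and fetal troponin T (0.743, and 0.105), and Mt1 (0.679, and -0.0342). S100a8 and S100a9 correlated at 0.389 over the group means, at 0.127 without nickel and at -0.169 over arrays within groups.

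The other members had neighbours of another kind. Csf3r was most like Slc7a5, an amino acid transporter (0.748), Irf8, a transcription factor of myeloid and B cells (0.738), and Mzb1, a protein of antibody-secreting cells (0.697), and these values were 0.697, 0.749 and 0.619 without nickel. Closest to Cxcl1 were Duox1 (0.712), Grm2 (0.710) and Gpr20 (0.709), to Cxcr2 Hcrtr1 (0.731), Lamp5 (0.716) and Krtap10-9 (0.690), and to S100a8 Mfsd11 (0.703), Cdh11 (0.630) and Trpv2 (0.618), although most arrays of S100a8 lay at background. These are correlations over group means. Whether all arrays were normalized in 1 run is not given in the sources used here. The part of a shared normalization, or of shared handling within a month, in these correlations was not tested. With Spearman's rank correlation in place of Pearson's, 4 of the 18 names were the same.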

How the data were processed

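RNA of gastrocnemius pools was hybridised to Clariom S Rat arrays, 250 ng each. The deposited log2 values were made by the authors with RMA in the R package oligo under R 4.0.1, per the submitters' processing notes; whether in 1 run is not given in the sources used here. Array medians were 6.36 to 6.54, and each array's mean correlation with the rest was at least 0.970. Of 22977 probe sets 23 controls were left out. Symbols came through gene IDs of a RefSeq table (GRCr8): 14855 probe sets had 1. The number of arrays limits the precision.

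Group means were estimated from all arrays together in limma 3.58.1 (R 4.3.3; 70 residual and 7.25 prior degrees of freedom), with two-sided tests adjusted per comparison over all probe sets; the fit was tested on simulated data. Named from each list are at most 4 genes, by smallest adjusted p, and any needed for a count; for likeness, the 3 highest correlations. The genes and lists were chosen with earlier results of these data known. Arrays sharing a replicate number deviated together (every correlation over 0.1) in 8 of 8 comparisons at 6 months, 5 of 7 at 12, and 0 of 8 at 1 and at 3 months. Alternatives were the replicate block, a dim filter, a second quantile normalization, intensity trend, array weights, fewer arrays, joint adjustment and leaving out arrays.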

Additional observations from a re-analysis of the deposited data

Results flagged for a closer look

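With 3 arrays in each group, single arrays were not tested for lying apart. What drew attention were effects that differed between metals of the same month, by a limma test of the difference itself. Nickel exceeded cobalt in Cxcl2 by 1.15 at 1 month and 1.12 at 3 months, and in S100a9 by 0.80 at 3 months, a contrast added after the data were seen. Nickel exceeded the mean of the other 7 metals in Cxcl2 by 0.98 at 1 month and 1.10 at 3 months, and in S100a9 by 0.80 at 3 months. Lead exceeded the mean of the other 7 metals in Cxcl1 by 0.54 at 1 month.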

How the results depend on the processing

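No difference that passed changed sign under any alternative run. Results under alternatives other than leaving out arrays were single differences and counts of calls. A single difference was held as the same if it stayed on its side of the threshold. Most counts were also held as the same when they changed by a small factor. By these rules 119 were the same, 9 stronger and 10 weaker, and the 119 include counts in which single calls were gained or lost. The 1 result without a test moved, the names of the most alike genes, of which 4 of 18 were kept with Spearman's correlation. The 3 calls against tantalum by month became 5 with array weights, which added S100a8 with copper at 1 month (adjusted p = 0.0407) and Csf3r with nickel at 3 months (0.49, adjusted p = 0.0446). They became 1, S100a9, when only the 6 arrays compared were fitted, and 2 to 3 when arrays of 1 metal and number were left out. The 1 call over months became 2 with the replicate block (S100a9 with nickel, adjusted p = 0.0457) and was 1 to 2 on leaving out arrays. The 0 changes between months became 1, S100a8 with copper, with the replicate block, a second quantile normalization or array weights, and were 0 to 1 on leaving out arrays: S100a8 with copper without its arrays numbered 2 (adjusted p = 0.0189) and Cxcl2 with nickel without its arrays numbered 1 (adjusted p = 0.000357). The 4 calls against the other metals were 3 to 5 on leaving out arrays; S100a8 with nickel at 3 months (adjusted p = 0.0193) and Cxcr2 with cobalt at 3 months (adjusted p = 0.0494) were gained with array weights. The 1 call in tantalum over time became 0 with the replicate block (adjusted p = 0.0637) and 0 without the dimmest 30% of probe sets, where S100a8, S100a9 and Csf3r are not tested, and was 0 to 1 on leaving out arrays. The lead difference of Cxcl1 was 0.43 with array weights (adjusted p = 0.0675). Cxcl2 with nickel ranged from 0.92 to 1.66 at 1 month and from 1.00 to 1.47 at 3 months on leaving out arrays, with adjusted p-values of up to 0.0406 and 0.00415. A smaller fit uses fewer arrays, and the dim filter leaves genes untested. Apart from the genes left untested, the cause of the changes was not tested. Signal near the controls limits what S100a8 and Csf3r can show.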
